A study of Mus musculus with 15 samples.

Results

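Isl1, Isl2, Lhx1, Lhx3, Lhx4, Lhx5 and Mnx1 are 7 of the 36814 genes in the deposited table, taken by symbol because they encode the LIM homeodomain factors and the homeodomain factor Mnx1 of the spinal motor neuron code. Their RNA was measured in 15 libraries from 5 motor pools of the hind limb in wild-type mice, a pool being the motor neurons that innervate a given muscle. The pools were those of the intrinsic foot muscles (IF, a group of muscles treated here as 1 pool), gastrocnemius (GS), tibialis anterior (TA), extensor digitorum longus (EDL) and peroneus longus (PL), with 3 libraries each. Per the labels, muscles were injected at postnatal day 4 with a fluorescent retrograde tracer, CTB-Alexa 555, and traced neurons were cut out by laser from spinal cord sections at postnatal day 6. Each library held RNA of 30 to 40 cells, taken from 2 to 5 animals. No label states the mouse strain or which animals went into which library.

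In the limb-level spinal cord, motor neurons of the lateral motor column fall into a medial division, whose axons enter the ventral limb, and a lateral division, whose axons enter the dorsal limb. In chick and mouse embryos the medial division is known for Isl1 and the lateral division for Lhx1, and Isl1 is known to repress Lhx1. LIM homeodomain proteins bind DNA in complexes bridged by the adaptor Ldb1, and Isl1 with Lhx3 specifies motor neurons as they are born. The labels name muscles and not divisions. IF and GS, which the tibial nerve supplies, are called medial here, and TA, EDL and PL, which the common peroneal nerve supplies, are called lateral; the assignment is textbook anatomy and was not measured.

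Isl1 and Lhx1 are the factors by which the divisions are known, and their promoters are shown for reference, from 250 bases before the transcription start to 50 bases after it (RefSeq, GRCm38.p6, both on the minus strand, 5′ to 3′, 300 bases each). Capitals mark the homeodomain core TAAT and the box CCAAT on either strand, so that ATTA and ATTGG are reverse-strand matches.
Isl1, chr13:116309639-116309938: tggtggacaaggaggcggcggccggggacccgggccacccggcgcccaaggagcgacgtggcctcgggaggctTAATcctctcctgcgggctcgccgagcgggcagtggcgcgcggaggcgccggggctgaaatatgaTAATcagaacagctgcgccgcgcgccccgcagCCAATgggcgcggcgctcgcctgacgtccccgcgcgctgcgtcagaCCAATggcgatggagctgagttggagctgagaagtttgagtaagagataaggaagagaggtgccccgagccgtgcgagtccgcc
Lhx1, chr11:84525485-84525784: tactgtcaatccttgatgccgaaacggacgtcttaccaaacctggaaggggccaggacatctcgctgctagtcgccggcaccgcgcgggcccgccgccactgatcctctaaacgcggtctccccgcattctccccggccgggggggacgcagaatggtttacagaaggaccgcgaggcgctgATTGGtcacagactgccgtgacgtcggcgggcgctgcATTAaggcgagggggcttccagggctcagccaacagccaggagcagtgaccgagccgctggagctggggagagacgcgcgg
The Isl1 promoter had CCAAT 80 and 34 bases and TAAT 177 and 112 bases before the start. In the Lhx1 promoter, CCAAT lay 68 bases and TAAT 31 bases before the start. Neither held TAATTA or TATAAA, and TGACG occurred 2 times in Isl1 and once in Lhx1. Among 32851 mouse promoters of the same length, searched on both strands, 58% held TAAT, 37.4% CCAAT, 20.8% TGACG, 13.6% TATAAA and 5.29% TAATTA, which contains TAAT. The Isl1 and Lhx1 promoters had a GC content of 69% and 65.7% with 37 and 31 CpG, against medians of 52.7% and 7 CpG over all promoters. These letter matches describe the windows and say nothing of binding. RefSeq promoters were matched for 6 of the 7 genes, all but Lhx5.

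Total gene counts per library ran from 4417114 (PL 2) to 8488368 (PL 1). PL 2 and PL 3 stood apart from the other libraries, with 25.7% and 29.2% of the tested genes at 0 reads against 0.732% to 13.7% elsewhere, and levels and folds of the members that PL 2 moved most are also given without it. Levels are in CPM, reads per 1e+06 TMM-scaled reads, and 3 reads corresponded to between 0.305 CPM (IF 1) and 0.958 CPM (PL 2). Which of the members was the higher is read only from the deposited RPKM, which is per gene length; summed marker levels and shares of reads are not per length. The label motor neuron was checked against 9 markers such as Chat and the neurofilament genes, all of which had reads in every library. Their summed level was 30900 to 105300 CPM in medial and 38930 to 118800 CPM in lateral libraries. Most of that sum came from the neurofilament genes Nefl and Nefm. Chat was at 80.4 to 156 CPM in medial and 66.2 to 495 CPM in lateral libraries.

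Isl1 (ENSMUSG00000042258, mm9 chromosome 13, 117088478 to 117099897, minus strand) separated the divisions completely. Its level was 76.1, 115 and 100.4 CPM in the IF libraries and 52.6, 94.1 and 51.4 CPM in the GS libraries. No read fell on Isl1 in any TA or PL library or in EDL 1 and EDL 3, and EDL 2 held 5 reads, 0.566 CPM. Every medial library therefore lay above every lateral one, which held for 28 of the 14340 genes tested (0.195%). Medial libraries held 3588 Isl1 reads and lateral libraries 5, a ratio of 979 per scaled read with a 95% counting interval of 419 to 3017.

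The gap held against each lateral pool. IF was at least 544-fold above TA and at least 537-fold above PL, bounds set by 3 counts over a pool without reads, and 485-fold above EDL (interval 208 to 1497). GS was at least 372-fold above TA and at least 367-fold above PL, and 332-fold above EDL (142 to 1023). In the edgeR quasi-likelihood test of medial against lateral pools, Isl1 passed with a Benjamini-Hochberg adjusted p of 2.016e-05, higher in 6 of 6 medial libraries, and without PL 2 and PL 3 together the adjusted p was 0.0001238. It was the only one of the 5 members tested that did, where 0.404% of all 14340 genes were called (27, or 0.188%, higher in medial pools and 31, or 0.216%, lower). DESeq2, which called more genes than edgeR in each comparison (counts in the last section), called 2 members, Isl1 and Lhx1. In these bulk samples, fewer Isl1-positive cells and less Isl1 RNA per cell cannot be told apart.

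**Figure D1:**
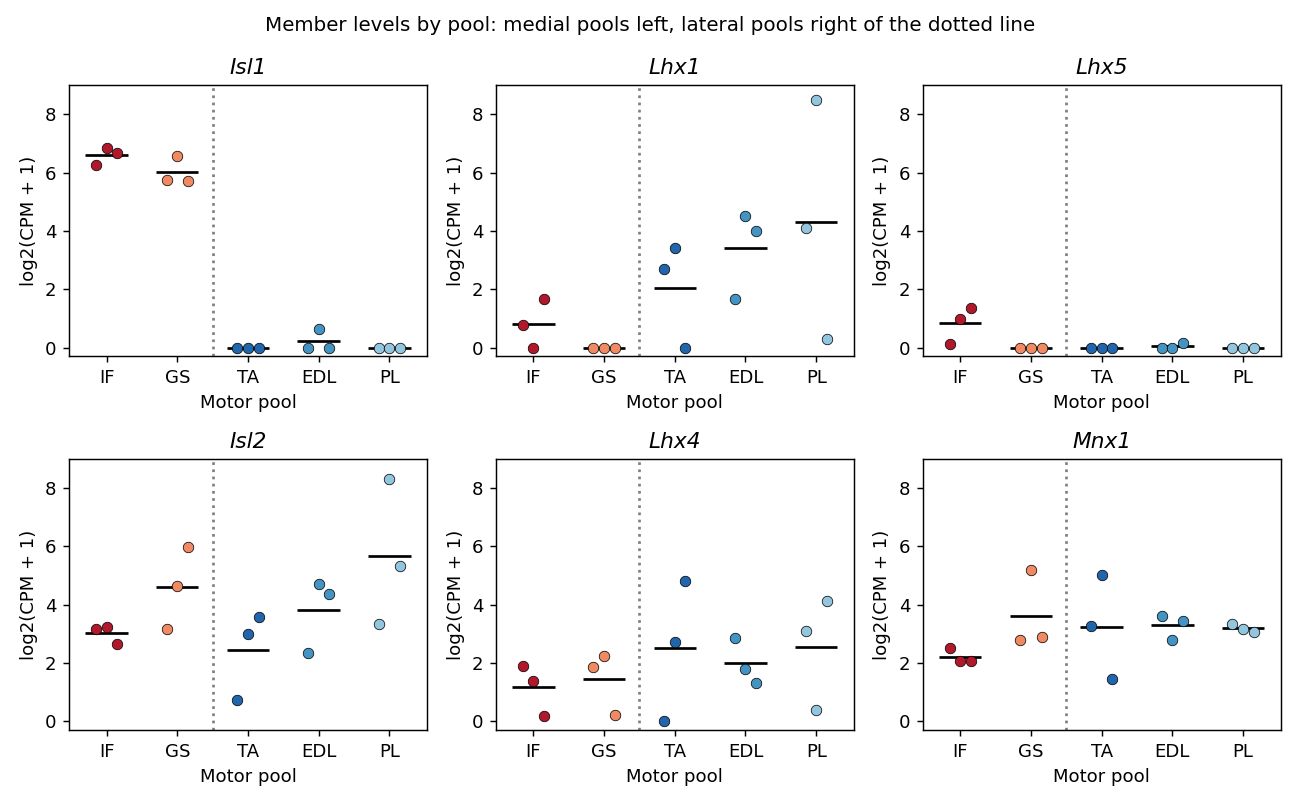
Level of 6 members in each library, as log2(CPM + 1), by motor pool; points are libraries and bars the mean of 3 libraries, with medial pools left of the dotted line. Isl1 lay between 51.4 and 115 CPM in medial libraries and at 0.566 CPM or less in lateral ones, while Lhx1 was spread from 0 to 361 CPM in lateral libraries.

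Within the medial pools, Isl1 averaged 97.1 ± 19.6 CPM in IF and 66.1 ± 24.3 CPM in GS (SD, n = 3 each). The ranges of the pools overlapped, and the log2 difference of IF over GS was 0.56 ± 0.90 (SE), with a Benjamini-Hochberg adjusted p of 0.9999 in the edgeR quasi-likelihood test. No member was called between IF and GS, where 0.126% of all genes were (0.0558% higher in IF and 0.0697% lower). None of the 5 members tested was under an unadjusted p of 0.05 there, against 639 of the 14340 genes, and DESeq2 called none. In order of level the pools were IF, GS, EDL, and then TA and PL at 0, and only the step from GS to EDL was without overlap.

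Lhx1 (ENSMUSG00000018698, mm9 chromosome 11, 84331479 to 84338924, minus strand), the lateral-division counterpart of Isl1, was found mainly in lateral libraries but not in all of them. It was at 0.713, 0 and 2.17 CPM in the IF libraries and had no read in any GS library. TA libraries were at 5.43, 9.57 and 0 CPM, EDL libraries at 2.20, 21.8 and 15.1 CPM, and PL libraries at 16.4, 361 and 0.221 CPM. Thus 7 of 9 lateral libraries lay above all 6 medial ones, and TA 3 and PL 3 did not. EDL 1 did so only by 2.20 against 2.17 CPM. How many of all genes had such a partial separation was not counted. All 6 medial libraries below all 9 lateral ones was met by 17 of the tested genes (0.119%), not by Lhx1. PL 2 alone held 1129 of the 1698 lateral reads.

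Medial libraries held 22 Lhx1 reads against 1698 in lateral libraries. Per scaled read the lateral level was 56.6-fold higher (counting interval 37.2 to 90.5), and 20.01-fold higher (13.1 to 32.2) without PL 2. Over GS, Lhx1 was at least 31.2-fold higher in TA, at least 82.0-fold higher in EDL and at least 476-fold higher in PL (at least 69.3-fold without PL 2). Over IF, it was 5.58-fold higher in TA (3.46 to 9.37), 14.7-fold in EDL (9.53 to 23.7) and 85.2-fold in PL (56.1 to 137), or 12.4-fold in PL without PL 2 (7.91 to 20.4). These intervals cover the counting error of reads only, taken as independent, and not the spread between libraries.

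That spread was wide. Lhx1 did not pass the edgeR quasi-likelihood test of medial against lateral pools, with a Benjamini-Hochberg adjusted p of 0.07942 (unadjusted 0.0005254). Over the alternatives tried, the adjusted p ran from 2.084e-07 to 0.2141. It passed with DESeq2 (0.00169), with no filter on low counts (2.084e-07), and in edgeR without PL 1 (0.02951) or without PL 3 (0.02556). It did not pass without PL 2 (0.1447) or without PL 2 and PL 3 together (0.1388). Without PL 1, 634 genes were called between the divisions, against 58 in the main fit. DESeq2 and the fit with no filter also called more genes than the main fit. The test of TA, EDL and PL among themselves gave Lhx1 a Benjamini-Hochberg adjusted p of 0.2663 in edgeR's quasi-likelihood fit. Over the alternatives tried it ran from 0.005293 to 0.8728, passing only with no filter on low counts and being highest without PL 2. In order of level the pools were PL (126 ± 204 CPM), EDL (13.0 ± 9.97), TA (5.00 ± 4.80), IF (0.961 ± 1.11) and GS (0) (SD, n = 3 each). Each overlapped its neighbour in that order, while EDL lay above IF and GS without overlap. The margin over IF was small, with 2.20 CPM in EDL 1 (19 reads) against 2.17 CPM in IF 3 (15 reads). The share of all genes with EDL above IF and GS in this way was not counted. Without PL 2, PL averaged 8.29 CPM (n = 2), below EDL.

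Reads of both genes occurred together in 3 libraries. Isl1 made up 97.9% to 100% of the Isl1 plus Lhx1 reads in the 6 medial libraries, and 0% to 2.53% in the 8 lateral libraries with any such read. Of the summed RPKM of the pair, which is per length, Isl1 made up 98.7% to 100% in medial libraries and 0% to 4.06% in these lateral ones. The 3 libraries were IF 1 with 747 Isl1 and 7 Lhx1 reads, IF 3 with 694 and 15, and EDL 2 with 5 and 193. TA 3 had neither gene, and PL 3 had a single Lhx1 read, for which the 95% exact interval of the Isl1 share reaches 97.5%. In EDL 2 the share was 2.53% (exact interval 0.825% to 5.79%).

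**Figure D2:**
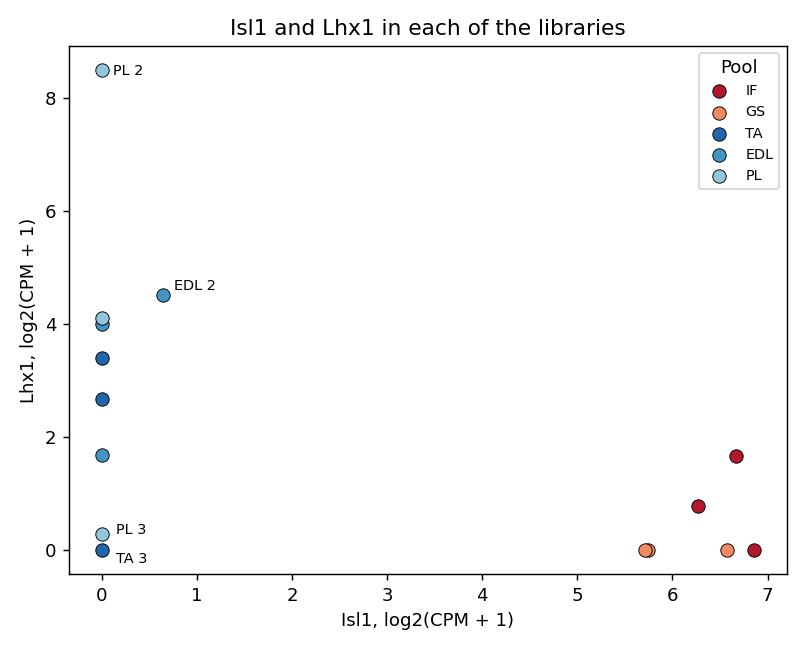
Isl1 against Lhx1 in each of the 15 libraries, both as log2(CPM + 1), coloured by pool. Medial libraries lie at the right with Lhx1 at 2.17 CPM or less, lateral libraries at the left with Isl1 at 0.566 CPM or less, and TA 3 and PL 3 lie near the origin.

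Lhx1 is also known in several classes of spinal interneurons, so 13 interneuron markers were read in the same libraries. Their summed level was 3.56 to 199 CPM in medial libraries and 22.9 to 364 CPM in lateral libraries. PL 2, the library with the most Lhx1, was at 299.3 CPM, from 775 reads of Slc6a5 (the glycine transporter), 143 of Gata2, 16 of Slc32a1 and 3 of Gad2. PL 3, with 1 Lhx1 read, was at 364 CPM, nearly all from 1648 reads of Gad2, which makes GABA. Evx1, Sox14, Gata3 and Tlx3 had no read in any library. Of the 13 markers, 4 passed the filter and 0 were called between the divisions by edgeR. Of the 4, 1 was under an unadjusted p of 0.05, as were 1492 of all 14340 genes. DESeq2 called 0 of the 3 to which it gave an adjusted p. The part of such RNA in the Lhx1 level of PL 2 was not tested.

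Isl2 (ENSMUSG00000032318, mm9 chromosome 9, 55386479 to 55393988, plus strand), a close relative of Isl1 expressed in motor neurons of both divisions, had reads in all 15 libraries. It was at 8.04, 8.37 and 5.35 CPM in IF and at 7.89, 24.0 and 61.7 CPM in GS. Lateral levels were 0.678, 7.04 and 11.1 CPM in TA, 4.05, 25.1 and 19.8 CPM in EDL, and 9.21, 318 and 39.3 CPM in PL. The divisions overlapped over most of their range, and PL 2 was again far above the rest. The log2 difference of medial over lateral pools was -0.62 ± 0.72 (SE), with a Benjamini-Hochberg adjusted p of 0.8445 in the edgeR quasi-likelihood test, and its sign turned to 0.17 without PL 2. In summed reads, medial over lateral was 0.579 (counting interval 0.531 to 0.631), and 1.25 (1.13 to 1.38) without PL 2.

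By mean level the order for Isl2 was PL (122 ± 171 CPM), GS (31.2 ± 27.6), EDL (16.3 ± 10.96), IF (7.26 ± 1.66) and TA (6.27 ± 5.24), and every pool overlapped its neighbour. PL lay above IF without overlap, a pattern whose share over all genes was not counted. The first places rest on single libraries: PL averaged 24.2 CPM without PL 2, below GS, and GS averaged 15.9 CPM without GS 3 (n = 2 each). For any difference among the 5 pools, the edgeR quasi-likelihood test gave Isl2 a Benjamini-Hochberg adjusted p of 0.1182 and Lhx1 one of 0.06049, while Isl1 passed at 0.000227; 1 of 5 members was called there, against 1.31% of all genes. DESeq2, which called many more genes in that comparison than edgeR, called 3 members, with adjusted p = 0.002895 for Isl2 and 0.0134 for Lhx1. In edgeR's quasi-likelihood fit without PL 1, the Benjamini-Hochberg adjusted p was 0.02329 for Isl2 and 0.0238 for Lhx1, and 0.0129 for Lhx1 without PL 3. The fit without PL 1 called 1257 genes in that comparison, against 188 in the main fit. Among TA, EDL and PL, edgeR called 0 of 5 members against 0.446% of all genes. Under an unadjusted p of 0.05 were 2 members (Isl2 and Lhx1) and 2443 of the 14340 genes. DESeq2 called Isl2 (adjusted p = 0.009324), as did edgeR without PL 1 (0.01911), a fit that called 1659 genes there. Isl2 overlaps a gene model on the opposite strand by 1341 bases, and the libraries do not mark strand. That model held 47 reads in all, 27 of them in GS 3.

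Isl1 outweighed Isl2 in most medial libraries. In deposited RPKM, Isl1 averaged 24.02 ± 4.0 in IF and 13.8 ± 4.39 in GS, and Isl2 averaged 2.07 ± 0.453 in IF and 7.08 ± 5.79 in GS (SD, n = 3 each). Isl1 made up 89.1% to 94.2% of the RPKM of the pair in IF, and 85.3%, 77.3% and 42% in GS 1, GS 2 and GS 3. In lateral libraries its share of the pair was at most 1.92%. The member with the highest RPKM was Isl1 in 5 of 6 medial libraries and Isl2 in GS 3. Among the 9 lateral libraries it was Isl2 in 4, Mnx1 in 4 and Lhx4 in TA 3. Lhx1 was never the highest: its median was 0 RPKM in medial and 1.02 RPKM in lateral libraries, against 19.02 RPKM in medial libraries for Isl1.

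**Figure D3:**
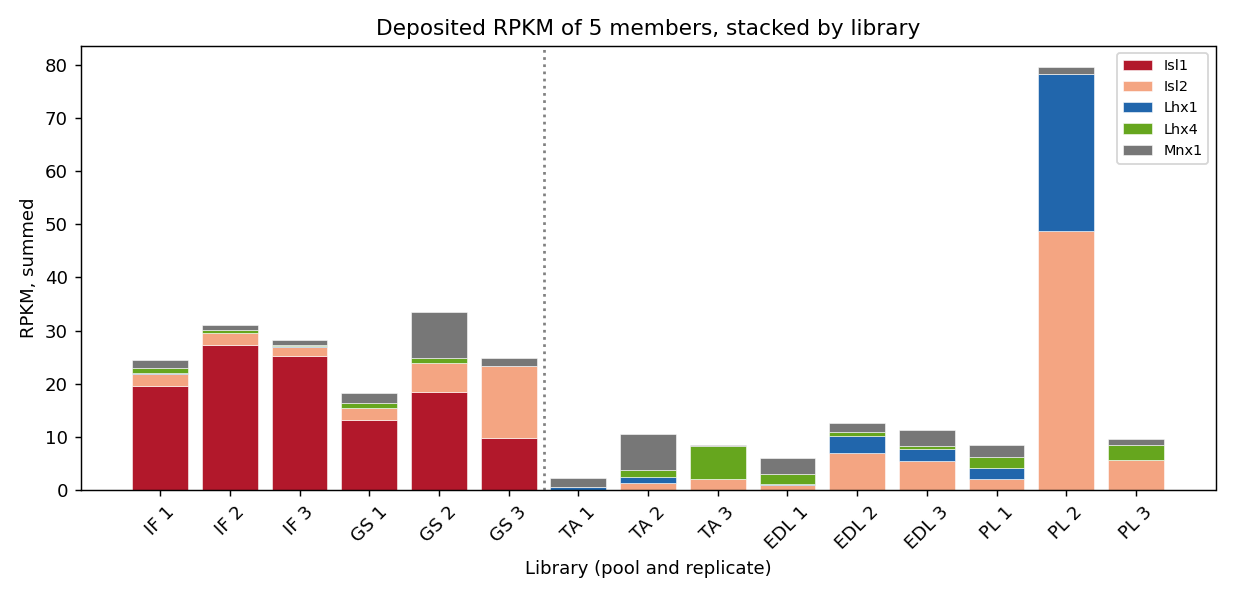
Deposited RPKM of 5 members, stacked for each library; medial libraries stand left of the dotted line and lateral ones right of it. Isl1 (9.78 to 27.2 RPKM) filled most of the medial bars except in GS 3, and PL 2 reached 79.5 RPKM in all, from Isl2 (48.8) and Lhx1 (29.4).

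Mnx1 (ENSMUSG00000001566, mm9 chromosome 5, 29799801 to 29805011, minus strand), known as HB9, keeps postmitotic motor neurons from an interneuron program and was read in all 15 libraries. It was at 4.68, 3.25 and 3.18 CPM in IF and at 5.85, 35.1 and 6.37 CPM in GS. It was at 8.65, 31.2 and 1.76 CPM in TA, at 11.2, 5.997 and 9.91 CPM in EDL, and at 9.10, 7.99 and 7.28 CPM in PL. The divisions overlapped, and the IF libraries lay below every GS, EDL and PL library. The share of all genes with that pattern was not counted. The log2 difference of medial over lateral pools was -0.40 ± 0.71 (SE; Benjamini-Hochberg adjusted p = 0.9146, edgeR quasi-likelihood), and it turned to 0.07 without TA 2. IF over GS gave -2.08 ± 1.14 (SE; Benjamini-Hochberg adjusted p = 0.9999, edgeR quasi-likelihood), and -0.72 without GS 2.

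By mean level the order for Mnx1 was GS (15.8 ± 16.7 CPM), TA (13.9 ± 15.4), EDL (9.05 ± 2.72), PL (8.12 ± 0.916) and IF (3.71 ± 0.848). Only the step from PL to IF was without overlap. GS averaged 6.11 CPM without GS 2, and TA 5.20 CPM without TA 2 (n = 2 each), both then below EDL and PL. In RPKM, Mnx1 had a median of 1.51 in medial and 1.77 in lateral libraries, close to Isl2 at 2.33 in medial and 2.15 in lateral libraries.

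Lhx3 and Lhx4 act together in newly born motor neurons, and Lhx3 persists in the median motor column, which supplies axial muscle and lies outside both limb divisions. Lhx3 (ENSMUSG00000026934, mm9 chromosome 2, 26055732 to 26063770, minus strand) had a single read, in IF 2, in all 15 libraries. Lhx4 (ENSMUSG00000026468, mm9 chromosome 1, 157548827 to 157589158, minus strand) was read in 14. It was at 2.75, 1.62 and 0.145 CPM in IF and at 2.63, 3.75 and 0.163 CPM in GS. It was at 0, 5.60 and 27.1 CPM in TA, at 6.26, 2.49 and 1.51 CPM in EDL, and at 7.47, 0.319 and 16.5 CPM in PL. Libraries of 1 pool differed widely, with 1 read of Lhx4 in IF 3, GS 3 and PL 2 beside 154 reads in TA 3.

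Summed reads of Lhx4 were 82 in medial and 418 in lateral libraries, a 3.74-fold higher level in lateral libraries per scaled read (counting interval 2.94 to 4.79). The fitted log2 difference of medial over lateral pools was -1.88 ± 1.15 (SE) and did not pass, with a Benjamini-Hochberg adjusted p of 0.6389 in the edgeR quasi-likelihood test. By mean level the pools ran TA (10.9 ± 14.3 CPM), PL (8.11 ± 8.13), EDL (3.42 ± 2.51), GS (2.18 ± 1.83) and IF (1.51 ± 1.31), each overlapping its neighbour. Without TA 3, TA averaged 2.80 CPM (n = 2), below PL and EDL. In RPKM its median was 0.716 in medial and 1.33 in lateral libraries.

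Lhx5 (ENSMUSG00000029595, mm9 chromosome 5, 120881895 to 120891467, plus strand), a relative of Lhx1 known from spinal interneurons, was near the floor. IF libraries held 1, 8 and 11 reads (0.102, 1.00 and 1.59 CPM), EDL 3 held 1 read, and the other 11 libraries, GS included, held none. Like Lhx3, it did not pass the filter on low counts and was left out of the filtered test. With no filter, the edgeR quasi-likelihood test gave Lhx5 a Benjamini-Hochberg adjusted p of 0.1951 for any difference among the 5 pools (unadjusted 0.03093) and of 1 for IF against GS (unadjusted 0.04553), and Lhx3 passed no comparison. Summed over libraries, medial over lateral was 27.3 with a counting interval of 4.36 to 1131, from 20 reads against 1. The IF libraries also detected the most genes, 16637 to 17321 against at most 16429 elsewhere. The part of this in the few Lhx5 and Lhx3 reads was not tested.

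Partners of the LIM factors gave no call between the divisions. Of 10 partners of LIM proteins (the adaptors Ldb1 and Ldb2, the Ssbp proteins that stabilise them, the LIM-only proteins Lmo1 to Lmo4 and the ubiquitin ligase Rlim), all were tested and 0 were called by edgeR. The median log2 difference was 0.10 over the 10, against 0.02 over all genes. Lmo1, a LIM-only protein that binds Ldb1 without binding DNA, and Ldb2 were under an unadjusted p of 0.05. So were 1492 of all 14340 genes. DESeq2, which called more genes than edgeR, called Lmo1 and Ldb2.

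Lmo1 was at 8.86, 11.4 and 10.99 CPM in IF, at 16.5, 9.53 and 5.39 CPM in GS, and at most 6.22 CPM in lateral libraries, with no read in TA 1, TA 3, PL 2 and PL 3. Its log2 difference of medial over lateral pools was 3.86 ± 0.94 (SE; Benjamini-Hochberg adjusted p = 0.08469, edgeR quasi-likelihood; 0.01767 without PL 1). EDL, at 5.30 ± 1.04 CPM, was close to GS 3. The fit without PL 1 called 634 genes between the divisions, against 58 in the main fit. Ldb2 was at 0.500 to 5.99 CPM in medial libraries and at 0.662 to 68.0 CPM in lateral libraries. PL 3 was the lowest lateral library and the other 8 lay above every medial library, a pattern whose share over all genes was not counted. The log2 difference of Ldb2 was -3.61 ± 0.90 (SE), with a Benjamini-Hochberg adjusted p of 0.08703 in the edgeR quasi-likelihood test. In the same test the adjusted p was 0.04309 without PL 1 and 0.0171 without PL 3.

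**Figure D4:**
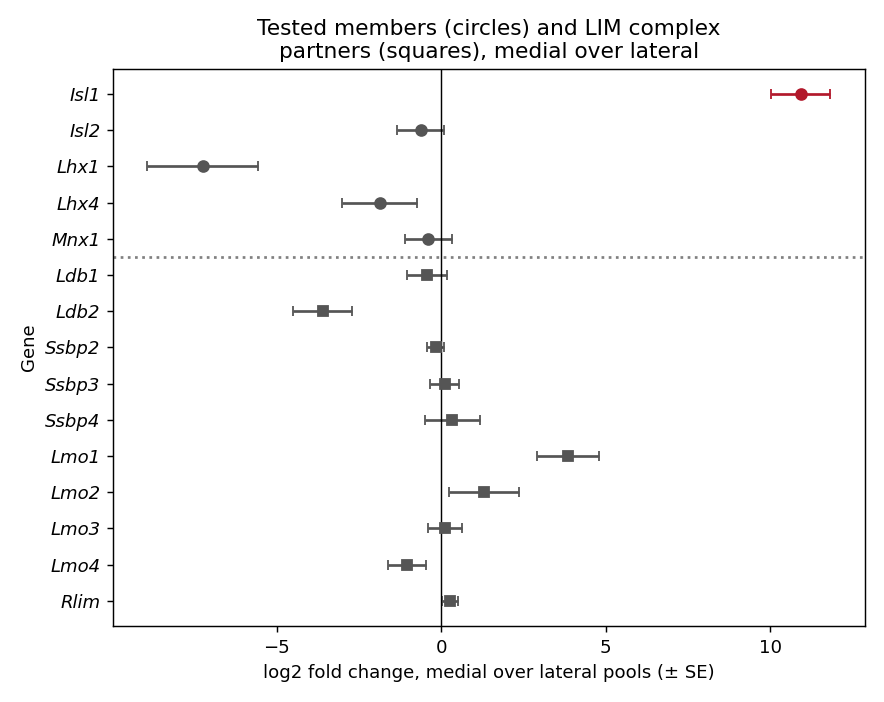
Log2 difference of medial over lateral pools with its standard error for the 5 members tested (circles) and 10 LIM complex partners (squares), from the edgeR fit; red marks an adjusted p under 0.05. Isl1 alone is red, and Lhx1, Ldb2 and Lmo1 lie away from 0 without passing. For Isl1 and Lhx1 the fitted size is set in part by the prior count, since some pools held no read.

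Of 6 further LIM homeodomain genes, none passed the filter on low counts. Lhx2, Lhx6, Lhx8 and Lhx9 had no read in any library, Lmx1a had 4 reads in 1 library, and Lmx1b had 104 reads in TA 1 and 10 in EDL 3. Among 10 progenitor and generic motor neuron factors, 5 were tested and 0 were called by edgeR. Of these 5, 3 were under an unadjusted p of 0.05, as were 1492 of all 14340 genes. DESeq2 called 1, Onecut2. Onecut2, of a family that in mouse embryos regulates Isl1 in motor neurons, was at 45.2 to 88.3 CPM in medial libraries and at 10.1 to 40.3 CPM in lateral ones. Its groups did not overlap, and all medial libraries lay above all lateral ones for 28 of the 14340 genes tested (0.195%). The log2 difference of Onecut2 was 1.48 ± 0.40 (SE), with a Benjamini-Hochberg adjusted p of 0.1208 in the edgeR quasi-likelihood test. In the same test without PL 1, which called 634 genes, its adjusted p was 0.04923.

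Of 13 factors and effectors of the limb column, edgeR called 0 higher and 2 lower in medial pools, against 0.188% and 0.216% of all genes. DESeq2, which called more genes than edgeR, called these 2 and Foxp1. Epha4, the ephrin receptor downstream of Lhx1 in the embryo, was not called (log2 difference -0.01 ± 0.23 SE, Benjamini-Hochberg adjusted p = 0.9999, edgeR quasi-likelihood). Aldh1a2, which makes retinoic acid and marks limb motor neurons, fell by 4.06 ± 0.31 on the log2 scale (SE; Benjamini-Hochberg adjusted p = 1.449e-06, edgeR quasi-likelihood). It was at 1.45 to 4.37 CPM in IF and at 177 to 474 CPM in GS, where it overlapped the lateral libraries at 341 to 906 CPM. Hoxc10, a lumbar Hox factor, fell by 2.07 ± 0.34 on the log2 scale (SE; Benjamini-Hochberg adjusted p = 0.005222, edgeR quasi-likelihood), with 8.86 to 15.3 CPM in IF, 106 to 464 CPM in GS and 110 to 475 CPM in lateral libraries. For both genes GS overlapped the lateral pools and IF lay below all other libraries. How many of all genes had IF lowest in this way was not counted. IF over GS passed for both, with log2 differences of -6.50 ± 0.51 for Aldh1a2 and -4.57 ± 0.56 for Hoxc10 (SE; Benjamini-Hochberg adjusted p = 2.102e-06 and 0.001006, edgeR quasi-likelihood), each lower in 3 of 3 IF libraries. With libraries compared as 2 groups and no pool terms, both lost the call, at Benjamini-Hochberg adjusted p of 0.6082 and 0.8546 in edgeR's quasi-likelihood fit.

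Foxp1, the factor that sets the limb motor columns and that lies upstream of their LIM code, was not called between the divisions (log2 difference 1.40 ± 0.31 SE; Benjamini-Hochberg adjusted p = 0.05805, edgeR quasi-likelihood). It was called for any difference among the 5 pools and among TA, EDL and PL (Benjamini-Hochberg adjusted p = 0.01429 and 0.01663, edgeR quasi-likelihood). It was at 117 to 221 CPM in medial libraries, and at 136 to 180 CPM in TA, 9.73 to 23.6 CPM in EDL and 39.0 to 191 CPM in PL. EDL was thus low for Foxp1 while all 3 EDL libraries held Lhx1.

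Levels of glial markers were read in the same libraries. Astrocyte markers summed to 2020 to 2782 CPM in medial and 2674 to 4159 CPM in lateral libraries. Of the 8, edgeR called 1 between the divisions, the glutamate transporter Slc1a2, against 0.404% of all genes. Slc1a2 was lower in medial pools (log2 difference -1.03 ± 0.18 SE, Benjamini-Hochberg adjusted p = 0.008189, edgeR quasi-likelihood), though not called without IF 1 (0.05343) or IF 2 (0.05346). Oligodendrocyte markers summed to 221 to 672 CPM in medial and 436 to 2440 CPM in lateral libraries, with PL 2 the highest. Of these 10 markers, edgeR called 0 and DESeq2, which called more genes in all, called 3. Under an unadjusted p of 0.05 were 4 of them and 1492 of all 14340 genes. Microglia and endothelial or fibroblast markers gave 0 calls of 6 tested each, with 0 and 1 under an unadjusted p of 0.05 and 0 by DESeq2. Of the motor neuron markers, Calca alone was called between the divisions, at 78.3 to 116 CPM in IF, 553 to 737 CPM in GS and 338 to 1455 CPM in lateral libraries (log2 difference -1.60 ± 0.23 SE; Benjamini-Hochberg adjusted p = 0.001618, edgeR quasi-likelihood). GS lay within the lateral range and IF below it, a pattern whose share over all genes was not counted. The log2 difference of IF over GS for Calca was -2.69 ± 0.36 (SE, Benjamini-Hochberg adjusted p = 0.001854, edgeR quasi-likelihood). With 2 groups and no pool terms, Calca lost the call between the divisions (Benjamini-Hochberg adjusted p = 0.5593, edgeR quasi-likelihood). Whether RNA from other cells contributed to the levels of the members was not tested.

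The genes whose levels over the 15 libraries were most like each member were named by Pearson's r of log2 CPM among 8333 tested genes with a mean of at least 10 CPM (8334 for Lhx4). For Isl1 these were the nicotinic receptor subunit Chrna3 (r = 0.958), the kinase Camk2a (0.946), the TRP channel regulator Pirt (0.87) and the substance P precursor Tac1 (0.823). Chrna3 averaged 61.8 CPM in IF and 35.4 in GS, against 0.232 in TA, 0.0754 in EDL and 1.19 in PL, and Camk2a 60.4 in IF and 95.4 in GS, against 6.08, 4.92 and 6.87 in TA, EDL and PL. Pirt and Tac1 were concentrated in IF, at 106 and 63.2 CPM, against 19.9 and 8.05 CPM in GS.

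The genes most like Isl2 were Hoxa9 (r = 0.906), Aff3 (0.892), Sdr39u1 (0.872) and Slc35a5 (0.867), all of which were highest in PL by pool mean, and their r was 0.761 to 0.827 without PL 2. For Lhx1 the leading genes were Sept11 (0.819), Kcnh7 (0.811), Prpf18 (0.81) and Slc7a1 (0.808), and their r was 0.648 to 0.669 without PL 2. For Lhx4 they were Rbfox2 (0.852), Apeh (0.828), Mtor (0.813) and Dgat2 (0.811), and for Mnx1 Ddit4 (0.859), Calm3 (0.829), Tmem127 (0.804) and Snhg11 (0.803). The libraries share pools and differ in depth, so these r describe likeness over the libraries only. Between members, r over the 15 libraries was -0.591 for Isl1 and Lhx1 and between -0.326 and 0.268 for the other 9 pairs.

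The authors' deposited table of pool comparisons listed Isl1 in 4 of the 16 lists analysed here. In the authors' deposited table, the mean normalized count of Isl1 was 642.5 in IF against 0 in TA (adjusted p = 1.10e-15), 794.2 in IF against 1.531 in EDL (1.14e-25), 593.2 in IF against 0 in PL (9.73e-05) and 1193 in GS against 0 in TA (1.43e-08). Lhx1 appeared once in the authors' deposited table, lower in IF than in PL, with 5.866 in IF against 793.6 in PL (adjusted p = 0.006627). No member was in the other 11 lists, which include both directions of IF against GS. Lists of GS against EDL and GS against PL were not analysed here.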

How the data were processed

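Total RNA of laser-captured motor neurons was measured. Per the labels' protocols, cDNA came from the Ovation RNA-Seq System V2 kit and libraries from Nextera, which does not mark strand. Reads were aligned with Bowtie 0.12.9 to mm9, per the submitters' processing notes; which gene counter was used is not given in the sources used here. For all 15 libraries the authors deposited raw counts of reads in each gene, and RPKM computed from them. Deposited counts were below 0 in 16 cells of 4 genes, which no source explains; these genes were left out. The authors' deposited lists give mean normalized counts of each pool (a signal in units of scaled reads) and adjusted p-values, made with DESeq per the submitters' processing notes, with no version given. Columns named foot were matched to IF.

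The counts were tested with edgeR 4.0.16 (R 4.3.3): TMM scaling, filterByExpr by pool (14340 genes), 1 coefficient per pool over all 15 libraries, quasi-likelihood F-tests and Benjamini-Hochberg adjustment over 14340 genes with a threshold of 0.05. The fit was tested on simulated data with genes changed between the divisions. It recovered 61 of 100 genes changed 4-fold and 98 of 100 changed 16-fold, with 9 false calls. The changed genes were drawn only from those above a set mean read count, and pools of a division were given the same level. Recovery for sparser genes, or for genes uneven among the pools of a division, was not simulated. A gene not called may thus still differ 4-fold or more. Medial against lateral is the mean of the IF and GS coefficients minus the mean of the TA, EDL and PL coefficients. The comparisons were this one, any difference among 5 pools, IF against GS, and any difference among TA, EDL and PL. Alternatives were DESeq2 1.42.0, RLE scaling, no filter, a replicate block, 2 groups without pool terms, and leaving out libraries. Leaving PL 2 out of the summed ratios and of the likeness, and single libraries out of pool means, was chosen after seeing the data.

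Counting intervals are 95% Poisson or exact binomial. The intervals and the floor of 3 counts treat each read as independent and cover no spread between libraries. Copies made by PCR are not separate molecules, so the intervals can be too narrow and the folds given as at least a value too high. No 2 libraries of a pool agreed within counting noise. Nothing ties a library to particular animals, so p-values measure the spread between these pooled libraries. The members, gene lists and tests were chosen with earlier results of these data known. Non-overlap was counted over all genes only for medial against lateral libraries, and other non-overlaps were named after their values were seen. The text names all members, the 4 genes most like each, and from each list the called genes or else the 2 with the smallest p; other list genes were named after their values were seen.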

Additional observations from a re-analysis of the deposited data

Results flagged for a closer look

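In 9 cases, among 13 groups of libraries examined, a single library stood farther from the others of its division than a Dixon limit allows. Chance puts about 1 in 20 groups past that limit only for normal values of 1 population. These groups mix pools, CPM was not put on a log scale, and levels near 0 reach the limit with few reads. The 9 cases therefore cannot be set against that rate. In the medial libraries these were Isl2 in GS 3 (61.7 CPM, next 24.0), Mnx1 in GS 2 (35.1 CPM, next 6.37), Lhx1 in IF 3 (2.17 CPM, next 0.713) and the single Lhx3 read in IF 2 (0.125 CPM). Among the lateral libraries they were Isl2 in PL 2 (318 CPM, next 39.3), Lhx1 in PL 2 (361 CPM, next 21.8), Mnx1 in TA 2 (31.2 CPM, next 11.2), the 5 Isl1 reads in EDL 2 (0.566 CPM) and the single Lhx5 read in EDL 3 (0.125 CPM).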

How the results depend on the processing

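Isl1 kept its call between the divisions in all 21 alternatives (adjusted p from 2.589e-39 to 0.000184). Counts of called genes moved more. Genes called between the divisions numbered 58, against 259 with DESeq2, 323 with no filter, 16 with 2 groups, and 22 to 634 when 1 library was left out (fewest without IF 1, most without PL 1). For any of 5 pools they numbered 188, against 1174 with DESeq2, 1425 with no filter, and 64 (without IF 2) to 1257 (without PL 1). For IF against GS they numbered 18, against 73 with DESeq2, 76 with no filter, 76 without PL 2 and PL 3 together, and 7 (without IF 1) to 39 (without PL 3). Among TA, EDL and PL they numbered 64, against 893 with DESeq2, 935 with no filter, and 25 (without EDL 2) to 1659 (without PL 1). The cause was not tested. With the replicate number as a block, 95 genes were called for any of 5 pools and 31 among TA, EDL and PL. Same-numbered libraries showed little common deviation (r of -0.0675 to 0.128, 1 of 30 pairs over 0.1). Libraries of a pool differed far beyond counting noise, so this cannot decide whether the numbers pair libraries. Directions between the divisions reversed for Isl2 (0.0242 with the block, 0.63 without PL 2 and PL 3, and -1.08 to 0.17 with 1 library left out, the highest without PL 2), Mnx1 (-1.08 to 0.0748 with 1 library left out, the highest without TA 2) and the microglia marker Itgam (0.62 without PL 2 and PL 3, -2.91 to 0.77 with 1 left out, the highest without PL 3), and for Lhx4 in IF over GS (-1.28 to 0.11 with 1 left out, 0.0059 without IF 3 and 0.11 without GS 2), none of them called. Calca lost its call with 2 groups (adjusted p = 0.5593), and Slc1a2 without IF 1 (0.05343) or IF 2 (0.05346). The pool spread in Lhx1 and the reads near 0 of Lhx3 and Lhx5 limit what this depth can show.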
